A study of Mus musculus with 20 samples.

Results

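The genes described here are 10 members of the NF-kappaB system: the 5 subunit genes Nfkb1, Nfkb2, Rel, Rela and Relb, the 4 I-kappaB genes Nfkbia, Nfkbib, Nfkbiz and Bcl3, and Tnfaip3. They were taken by gene symbol from the 59311 genes of the deposited expression table, by a rule that names their roles in the pathway, at a time when earlier results of these data were known. Each symbol was found on 1 gene, and all 10 genes passed the filter on low values that left 17248 genes to test.

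NF-kappaB is a family of dimeric transcription factors that carries signals from Toll-like, interleukin and TNF receptors to the nucleus of macrophages. Inhibitor proteins of the I-kappaB family hold the dimers in the cytoplasm until a kinase marks the inhibitor for destruction. The freed dimers then switch on inflammatory genes together with the genes of their own inhibitors, so the levels of Nfkbia and Tnfaip3 are widely read as a trace of recent pathway activity.

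The cells were intrahepatic monocyte-derived macrophages (MoMac) of 10 male C57BL/6 mice aged 10 to 12 weeks whose livers had been made fibrotic with carbon tetrachloride (CCl4). All mice had the same injury, 0.6 ml/kg CCl4 given 2 times a week for 4 weeks, and no library came from an uninjured liver. Mice 11 to 15 received vehicle (1% DMSO in PBS) and mice 16 to 20 received 0.25 mg/kg Ac-6-FP, an MR1 ligand that blocks the activation of mucosal-associated invariant T (MAIT) cells, from 2 h before the last CCl4 injection and then daily for 2 days. From each liver CD11b+ F4/80+ cells lacking Ly6G, CD11c and CD3 were sorted by their surface Ly6C into a Ly6Chi and a Ly6Clo library, so that there were 20 libraries, 5 in each of 4 groups. Ac-6-FP was given to the whole animal, and the MAIT cells themselves were not sequenced.

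Expression is given throughout as the DESeq-normalised read count of the deposited table, which is scaled for library depth but not for gene length, so levels were compared between libraries and not between genes. The libraries held 5693049 to 18682437 reads on genes. The Ly6Clo library of vehicle mouse 13 stood apart: it had reads on 5343 genes, against 9017 to 15766 genes in the other 19 libraries, and 41.6% of the well-expressed genes were at 0 in it. The median number of genes with reads was 9749 in the vehicle and 13622 in the Ac-6-FP libraries of Ly6Chi cells, and 10379 and 14084 in those of Ly6Clo cells. Detection thus moved with treatment, and its part in the differences with Ac-6-FP was not tested. A level of 0 allows up to 3 reads, which is a normalised count of 1.87 to 6.26 depending on the library.

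The promoter DNA is shown because the inhibitors are known targets of the factors they restrain. RefSeq windows of the 250 bases before a start site (build GRCm38.p6, equivalent to the mm10 of the deposited coordinates) were at hand for 7 of the 10 genes, and none for Nfkb1, Nfkbiz and Relb. The kappaB consensus, a motif of 10 letters searched on both strands, occurred before at least 1 start of Nfkbia, Nfkb2, Rel and Tnfaip3, and in none of the windows of Nfkbib, Rela and Bcl3. Among all genes with a window 4.46% held a match, as did 9 of the 20 target genes with a window that are described further on. The Nfkbia window lies at chr12:55492648-55492897 on the minus strand, directly upstream of the gene and outside annotated exons, and its match is in capitals:
Nfkbia promoter: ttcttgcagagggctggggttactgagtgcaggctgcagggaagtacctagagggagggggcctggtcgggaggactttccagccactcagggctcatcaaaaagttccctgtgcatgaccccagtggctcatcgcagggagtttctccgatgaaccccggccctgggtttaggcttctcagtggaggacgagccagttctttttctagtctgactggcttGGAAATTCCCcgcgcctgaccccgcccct

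The matched sites before the other 3 genes are shown with their nearest flanks, again with the motif in capitals. Nfkb2 has them at chr19:46304689-46304717, chr19:46304716-46304736, chr19:46305449-46305478 and chr19:46305695-46305724 on the plus strand, before 3 annotated starts. Rel has 1 place at chr11:23771042-23771070 and Tnfaip3 has 2, at chr10:19015411-19015432 and chr10:19015516-19015545, all on the minus strand.
Nfkb2 site A: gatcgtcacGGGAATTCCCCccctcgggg
Nfkb2 site B: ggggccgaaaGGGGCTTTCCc
Nfkb2 site C: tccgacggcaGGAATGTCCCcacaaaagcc
Nfkb2 site D: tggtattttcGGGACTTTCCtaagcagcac
Rel site: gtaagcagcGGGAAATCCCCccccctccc
Tnfaip3 site A: aatttccatcGGAAATCCCCct
Tnfaip3 site B: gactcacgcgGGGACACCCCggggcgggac
These matches describe letters in the reference genome, and no binding was measured.

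**Figure D1:**
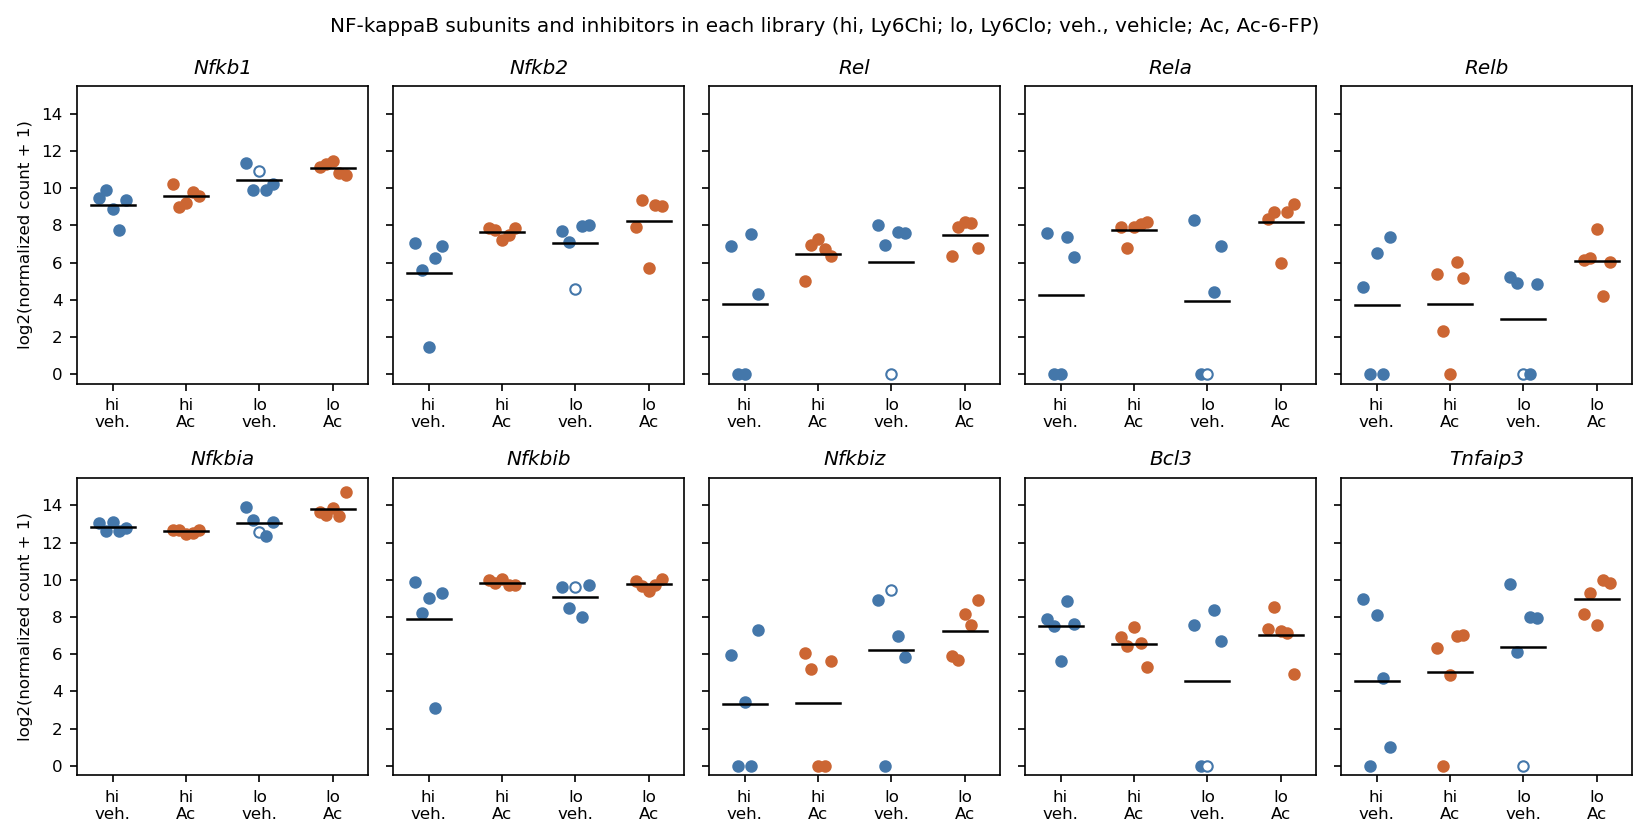
Level of each of the 10 genes, as log2(normalised count + 1), in each library, 1 panel a gene, with the libraries in 4 groups by subset and treatment and a line at each group's mean. Nfkb1, Nfkb2, Nfkbia and Nfkbib were read in every library, whereas Nfkbiz, Rel, Rela, Relb, Tnfaip3 and Bcl3 each had libraries at 0, most of them of vehicle mice.

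The first comparison asked which of these genes differ between the 2 MoMac subsets of the same liver. Ly6Clo cells held more Nfkb1 and more Nfkbia than Ly6Chi cells, by 2.74-fold and 1.64-fold, and these were the 2 of 10 genes that passed the test. The test was limma on the within-mouse difference of log2(normalised count + 1) over 10 mice, adjusted over all 17248 genes, which called 5.22% of genes in all and 3.41% as higher in Ly6Clo cells. None of the 10 genes passed as higher in Ly6Chi cells.

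Nfkb1 (chr3:135584657-135691547) encodes p105, the precursor of the p50 subunit. In Ly6Chi cells its normalised count was 716, 974, 464, 217 and 659.7 in vehicle mice 11 to 15, and 1182, 516, 596, 895 and 767.5 in Ac-6-FP mice 16 to 20. In Ly6Clo cells it was 2589.8, 963, 1976, 948 and 1209 in the vehicle mice, and 2287, 2487, 2819.9, 1827 and 1707 in the Ac-6-FP mice. The Ly6Clo library was the higher in 9 of 10 mice, and in vehicle mouse 12 the subsets were nearly equal. The mean was 699 ± 276 (SD, n = 10) in Ly6Chi and 1881 ± 677 (SD, n = 10) in Ly6Clo cells, and the log2 difference, Ly6Chi minus Ly6Clo, was -1.46 (SE 0.26, limma adjusted p = 0.00623, exact sign-flip permutation p = 0.00391, two-sided). The call held under every alternative setting that kept both treatments, and with each mouse left out in turn. Ube2d3 overlaps the gene's end in the annotation, and its level ran against that of Nfkb1 across libraries (r = -0.326, 20 libraries).

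Nfkbia (chr12:55489409-55492647) encodes I-kappaB-alpha, the inhibitor that NF-kappaB quickly replaces after its own activation. In Ly6Chi cells its normalised count was 8522, 6418, 8895, 6239 and 6945 in vehicle mice 11 to 15, and 6567, 6475, 5544, 5903 and 6583 in Ac-6-FP mice 16 to 20. In Ly6Clo cells it was 15598, 9640.1, 6015, 5259 and 8942 in the vehicle mice, and 13029, 11301, 14761, 10882 and 27329 in the Ac-6-FP mice. The Ly6Clo library was the higher in 8 of 10 mice, and the 2 exceptions were vehicle mice 13 and 14. The log2 difference between subsets was -0.72 (SE 0.16, limma adjusted p = 0.0199, exact sign-flip permutation p = 0.0156), from means of 6809 ± 1076 in Ly6Chi and 12275 ± 6269 in Ly6Clo cells (SD, n = 10 each). The count test of edgeR on the recovered reads did not call it, by a narrow margin (adjusted p = 0.05002). Over the 11 alternative settings that kept both treatments the limma or edgeR adjusted p ran from 0.00740 to 0.164. With each mouse left out in turn the limma adjusted p ran from 0.00596 to 0.0530, and the call was lost without mouse 12, 15 or 18. Nfkbia rested on 2882 to 29462 reads a library, which come from a low-input kit and were not counted as independent molecules.

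Libraries that differ in cell make-up bear on both genes, because in bulk samples fewer cells of a type and less RNA per cell cannot be told apart. The sort held by its own marker: all 6 Ly6Chi monocyte markers passed as higher in Ly6Chi cells (Ly6c2 7403 ± 1691 against 688 ± 198, SD, n = 10). None of 4 markers shared by the sorted macrophages, Itgam and Adgre1 among them, was called in either direction. Several markers of other cells were higher in the Ly6Clo libraries. The summed level of 7 T and NK cell markers was 0 to 812 in Ly6Chi and 39540 to 86330 in Ly6Clo libraries, with 4 of the 6 tested called (Ncr1, Klrb1c, Gzma and Nkg7), while Cd3e was at 0 in all Ly6Chi libraries and averaged 1.88 in Ly6Clo libraries. Neutrophil markers summed to 3444 to 7297 and 10387 to 125190 (2 of 6 called), and dendritic cell markers to 0 to 358 and 2332 to 12488 (3 of 7 called), with Itgax, the gene of CD11c, at 0 in every Ly6Chi library and at 1640 ± 992 in Ly6Clo. B cell markers summed to 80.2 to 743 and 0 to 1131 (1 of 4 called), and Kupffer cell markers to 0 to 246 and 0 to 808 (1 of 4 called), with Timd4 at 0 in all Ly6Chi libraries. Of the remaining lists, 2 of 7 Ly6Clo monocyte markers, 1 of 4 hepatocyte, 1 of 4 endothelial and 0 of 3 stellate cell markers were called, each as higher in Ly6Clo cells. Estimates of 3 of the 7 Ly6Clo monocyte markers were toward Ly6Chi cells, Nr4a1 (log2 difference 0.59), Trem2 (0.91) and Gpnmb (0.92), and none of these was called. Some uncalled markers of other cells leaned that way too, such as Acta2 of stellate cells (267 ± 212 in Ly6Chi and 63.0 ± 68.2 in Ly6Clo libraries, limma adjusted p = 0.108) and Csf3r of neutrophils (limma adjusted p = 0.163). The part of these cells in the higher Nfkb1 and Nfkbia of Ly6Clo libraries was not tested.

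**Figure D2:**
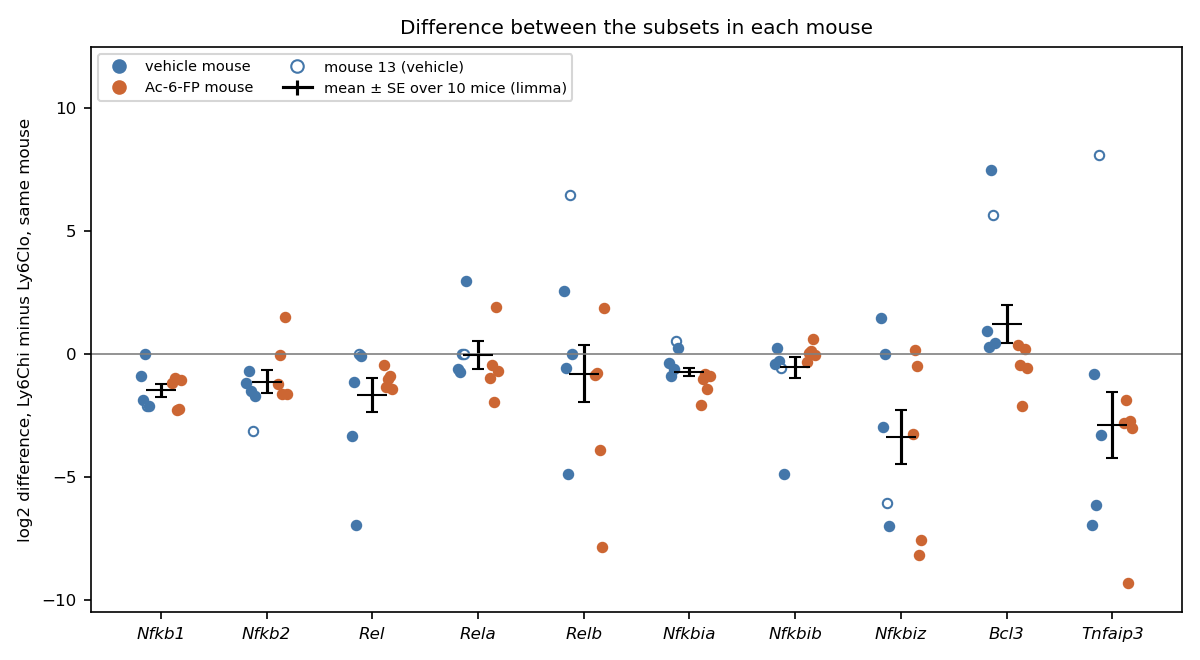
Log2 difference between subsets, Ly6Chi minus Ly6Clo, for each of the 10 genes: points are the 10 mice, coloured by treatment (open, mouse 13), and bars are the mean with its standard error from limma. Nfkb1 (-1.46) and Nfkbia (-0.72) are the 2 that passed, while Nfkbiz, Tnfaip3 and Relb scatter over many log2 units between mice.

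Of the other subunits, Nfkb2 and Rel also lay lower in Ly6Chi cells without passing the test. Nfkb2 (chr19:46304319-46312385), the precursor of p52 in the non-canonical branch, was lower in Ly6Chi cells in 9 of 10 mice, with a log2 difference of -1.11 (SE 0.46, limma adjusted p = 0.233). Rel (chr11:23741517-23770970), which encodes c-Rel, was lower in 9 mice and at 0 in both libraries of mouse 13, with a log2 difference of -1.66 (SE 0.70, limma adjusted p = 0.246). Together with Nfkb1, Nfkbia and Nfkbiz they are the 5 genes with an unadjusted limma p under 0.05 toward Ly6Clo, where 9.99% of all genes had one. With edgeR 2 of the 10 had one, Nfkb1 and Nfkbia, as did 1094 of the 17248 genes. Rela (chr19:5637480-5648130), the p65 subunit that carries the main activation domain, had a log2 difference of -0.05 (SE 0.57), and Relb (chr7:19606217-19629439), the partner of p52, one of -0.78 (SE 1.17). An unnamed gene overlapping Rela held a mean of 456 beside the 192 of Rela (r = 0.514 across 20 libraries) and one within Rel a mean of 18.7 beside 129.8 (r = 0.743), and without strand their reads cannot be told apart. For Relb the SE alone is above 1 log2 unit, so a 2-fold difference between subsets was not detectable in these mice.

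The remaining inhibitors split. Tnfaip3 (chr10:19000913-19015410) encodes A20, an enzyme that edits ubiquitin on the receptor complexes and so damps the signal. Its normalised count in Ly6Chi cells was 504, 0, 271, 25.1 and 0.99 in vehicle mice 11 to 15, and 78.1, 0, 28.3, 125 and 128 in Ac-6-FP mice 16 to 20. In Ly6Clo cells it was 880.1, 69.4, 0, 251.6 and 243, and then 286, 634, 189, 1018 and 895. Ly6Clo was the higher in 9 of 10 mice, the exception being mouse 13, whose Ly6Clo library is the one that stood apart. Its log2 difference was -2.87 (SE 1.33, limma adjusted p = 0.298) with all libraries and -4.11 (SE 0.88, limma adjusted p = 0.0192) without that library, where edgeR gave an adjusted p of 0.110. Over the 11 alternative settings that kept both treatments its limma or edgeR adjusted p ran from 0.0192 to 0.686. With each mouse left out in turn its limma adjusted p ran from 0.0167 to 0.471.

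Nfkbiz (chr16:55811375-55838899), a nuclear I-kappaB that helps switch on secondary inflammatory genes, ranged from 0 to 155 in Ly6Chi and from 0 to 701 in Ly6Clo cells, with 4 and 1 libraries at 0. Its log2 difference of -3.38 had an SE of 1.11 and a limma adjusted p of 0.124. Nfkbib (chr7:28758251-28766644), the I-kappaB-beta gene, averaged 703 ± 340 in Ly6Chi and 735 ± 251 in Ly6Clo cells (SD, n = 10 each). Bcl3 (chr7:19808462-19822755), a nuclear I-kappaB that binds p50 and p52 dimers, was the only one of the 10 with a positive estimate, 1.23 (SE 0.76, limma adjusted p = 0.447). An unnamed gene of the annotation shares the coordinates of Bcl3 with almost the same counts (r = 0.98 across 20 libraries), so reads of the 2 cannot be told apart. The median log2 difference of the 10 genes was -0.95, beside -0.03 over all genes tested, and no gene of the 10 had the same sign in every mouse, where 3.85% of all genes did.

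**Figure D3:**
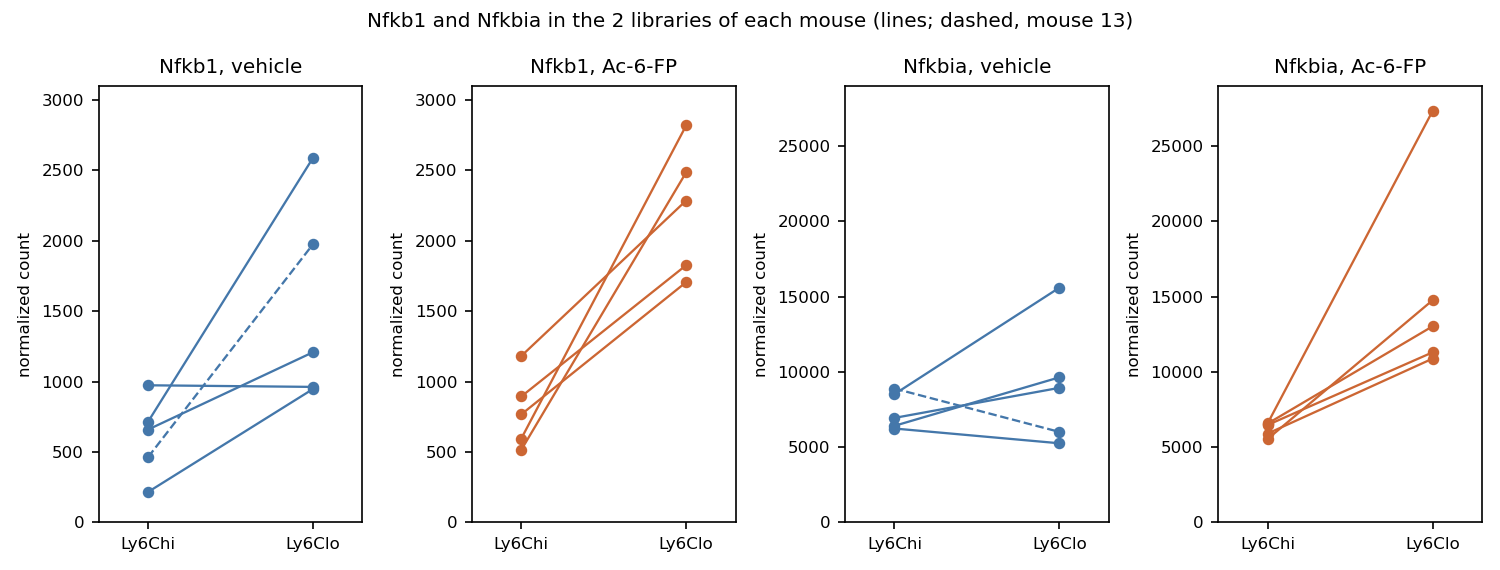
Normalised read counts (linear axis from 0) of Nfkb1 and Nfkbia in the Ly6Chi and the Ly6Clo library of each mouse, joined by a line, in panels by treatment, with mouse 13 dashed. Lines rise toward Ly6Clo in 9 of 10 mice for Nfkb1 and in 8 of 10 for Nfkbia.

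The second comparison asked what Ac-6-FP did to these genes within Ly6Chi cells. None of the 10 passed the test, none had an unadjusted p under 0.05 with limma or with edgeR, and limma called 0.0754% of all genes with 8.73% at an unadjusted p under 0.05. The median log2 difference over all genes was 0.35, so the libraries of treated mice read higher across the table, and 6 of the 10 genes lay above that median and 4 below it. The median of the 10 genes was 0.48, with 8 estimates above 0. With edgeR it was 0.08 (5 above 0, all genes 0.10) and with the covariate for genes read it was -0.09 (5 above 0, all genes 0.01), so no common direction can be given. With that covariate 1 of the 10, Nfkbia, had an unadjusted limma p under 0.05, as lower.

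Nfkb2 was the member whose groups did not overlap, as was the case for 1.35% of all genes. Its normalised count was 130.1, 48.2, 1.76, 75.4 and 118 in vehicle mice 11 to 15 and 234, 215, 147, 176 and 229 in Ac-6-FP mice 16 to 20. Every treated library was above every vehicle library, and the exact permutation p was 0.00794, the smallest that 5 against 5 mice can give. The log2 difference was 2.18 with an SE of 0.99, and limma, which adjusts over all genes, gave an adjusted p of 0.583. Its size rests on the vehicle library of mouse 13, with 2 reads: without that mouse the difference was 1.18, and with edgeR and all mice it was 1.43.

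Among the inhibitors in Ly6Chi cells, Nfkbia averaged 7404 ± 1226 with vehicle and 6214 ± 467 with Ac-6-FP (SD, n = 5 each), a log2 difference of -0.24 (SE 0.12, limma adjusted p = 0.612, exact permutation p = 0.0873). The groups overlapped, since vehicle mice 12 and 14 lay within the treated range. Bcl3 averaged 224 ± 148 and 103 ± 50.9 (log2 difference -0.96, SE 0.61), and Nfkbib averaged 478 ± 351 and 928 ± 104 (1.95, SE 1.16), where 1 vehicle library, that of mouse 14, rested on 8 reads. Without mouse 14 the difference of Nfkbib was 0.75, and with edgeR and all mice it was 0.94. Tnfaip3, Nfkbiz and Relb had estimates of 0.48, 0.05 and 0.08 with SEs of 2.16, 2.01 and 1.93, and each turned negative under quantile normalisation, so no direction can be given for them.

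Of the subunits, Rela was at 0 in vehicle mice 12 and 13 and at 190.3, 167 and 77.15 in vehicle mice 11, 14 and 15, against 241, 109.7, 244.5, 267 and 288 with Ac-6-FP. The log2 difference of 3.53 had an SE of 1.68 and a limma adjusted p of 0.606. Its size rests on the 2 libraries at 0. Rel had an estimate of 2.71 (SE 1.62), also with 2 vehicle libraries at 0, and Nfkb1 one of 0.49 (SE 0.41).

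**Figure D4:**
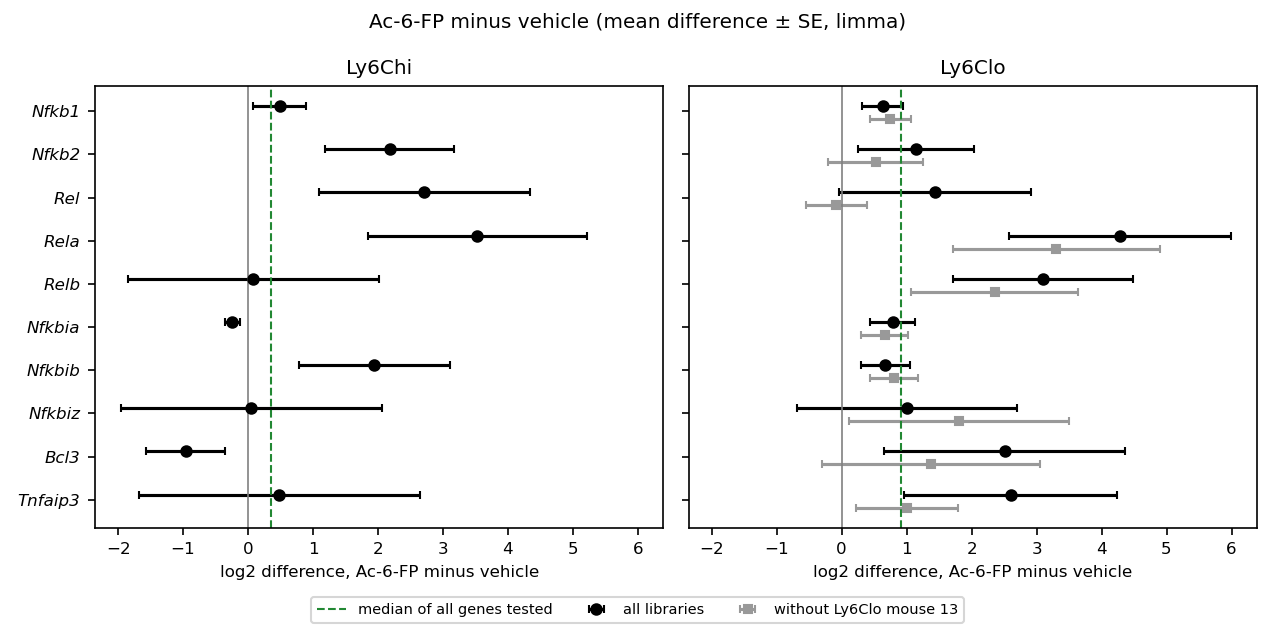
Log2 difference with Ac-6-FP, treated minus vehicle, in Ly6Chi (left) and Ly6Clo cells (right) for each of the 10 genes, with standard errors from limma, and in grey the values without the Ly6Clo library of mouse 13. The dashed line is the median of all genes tested (0.35 and 0.91), Nfkbia and Bcl3 lie below 0 in Ly6Chi and above 0 in Ly6Clo cells, and none of the differences passed the adjusted threshold.

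Within Ly6Clo cells the estimates of all 10 genes were positive and none passed the test, where limma called 0.0522% of all genes. The median over all genes was 0.91, and 7 of the 10 lay above it, Nfkbia, Nfkbib and Nfkb1 being below. Nfkbia and Rela had an unadjusted limma p under 0.05, as did 9.31% of all genes, and with edgeR none of the 10 did. No gene of the 10 had groups that did not overlap, beside 1.5% of all genes. The vehicle library of mouse 13 weighs on these values: without it 9 of the 10 estimates were positive, and the median of the 10 genes went from 1.29 to 0.91 while that of all genes went from 0.91 to 0.34. With all libraries edgeR gave 9 positive estimates and a median of 0.62 (all genes 0.29), and the covariate for genes read gave 9 and 0.57 (all genes 0.06).

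Nfkbia averaged 9091 ± 4087 with vehicle and 15460.2 ± 6810.3 with Ac-6-FP (SD, n = 5 each). The log2 difference was 0.79 (SE 0.34, limma p = 0.0468, adjusted p = 0.532, exact permutation p = 0.0714). Every treated library was above the vehicle mean, but the vehicle library of mouse 11, at 15598, was above 4 of the 5 treated ones. Without mouse 13's library the difference was 0.66 (SE 0.36, exact permutation p = 0.143). Nfkb1 averaged 1537 ± 722 and 2225 ± 462 (0.63, SE 0.31, and 0.75 with an exact permutation p of 0.0873 without mouse 13's library), with the vehicle library of mouse 11 again above 4 of the 5 treated ones.

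Rela in Ly6Clo cells was at 309.9, 0, 0, 20.45 and 117 in vehicle mice 11 to 15 and at 330.2, 428, 63.4, 429 and 563 in Ac-6-FP mice 16 to 20. The log2 difference was 4.29 (SE 1.71, limma p = 0.0324, adjusted p = 0.528, exact permutation p = 0.0556), or 3.31 (exact permutation p = 0.0873) without the library of mouse 13 and 1.98 with edgeR, and vehicle mice 12 and 13 were at 0 here as they were in Ly6Chi cells. Relb gave 3.10 (SE 1.39, limma adjusted p = 0.534, exact permutation p = 0.0317), and without the library of mouse 13 it gave 2.36 (exact permutation p = 0.0476). Nfkb2 gave 1.15 (SE 0.89) and Rel 1.43 (SE 1.48), and without that library they gave 0.52 and -0.08. Tnfaip3 gave 2.60 (SE 1.64) with all libraries and 1.01 without it, and Bcl3 2.51 (SE 1.86) and 1.38.

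The third comparison, the one the study built its gene lists on, asked whether Ac-6-FP changed the subsets differently. It was tested as the within-mouse difference between subsets in 5 treated against 5 vehicle mice. No gene of the whole table passed with limma (percent called: 0) or with edgeR, and 4.87% had an unadjusted limma p under 0.05. Of the 10 genes 2 had one with limma, Nfkbia and Bcl3, and 1 with edgeR, Nfkbia. Groups did not overlap for 0.806% of all genes and for none of the 10.

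The Ly6Chi minus Ly6Clo log2 difference of Nfkbia was -0.87, -0.59, 0.56, 0.25 and -0.36 in vehicle mice 11 to 15 and -0.99, -0.80, -1.41, -0.88 and -2.05 in Ac-6-FP mice 16 to 20. All 5 treated mice lay below the vehicle mean, and treated mouse 17 lay above vehicle mouse 11. The change between treatments was -1.03 (SE 0.31, limma p = 0.00701, adjusted p = 0.830, exact permutation p = 0.0159), and -0.83 (limma p = 0.0172) without the Ly6Clo library of mouse 13. Taken within each treatment, the subset difference of Nfkbia was -0.20 (limma adjusted p = 0.730) in vehicle mice and -1.23 (limma adjusted p = 0.0505) in treated mice. That of Nfkb1 was -1.38 and -1.53, with a change of -0.14 (SE 0.53) between treatments.

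Bcl3 had subset differences of 0.29, 7.51, 5.66, 0.45 and 0.93 in vehicle mice and of -0.42, -2.12, 0.21, -0.54 and 0.37 in treated mice. The values of vehicle mice 12 and 13 come from Ly6Clo libraries in which Bcl3 was at 0. The change was -3.47 (SE 1.53, limma p = 0.0437, adjusted p = 0.830, exact permutation p = 0.0159), and -2.79 (limma p = 0.0852) without the Ly6Clo library of mouse 13.

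The study's own criterion set the 5 treated mice against the vehicle mean, with a fold of at least 1.5 and a paired p of at most 0.05, so it holds no spread between vehicle mice. The version computed here used the 17248 filtered genes and log2(normalised count + 1) and left out genes with no spread, inputs that may differ from the study's, so its counts need not be the study's counts. Recomputed here, it took 21.9% of all genes and 4 of the 10: Nfkbia and Bcl3 with a lower, and Nfkbib and Rel with a higher, change in Ly6Chi than in Ly6Clo cells. Without the Ly6Clo library of mouse 13 it took 17.7% of all genes and the 4 with the same signs. Nfkbia and Nfkbib are on the gene lists that the study chose on these samples, so their place here is no independent evidence. Over the 10 genes the median change was -0.85 with limma, beside -0.27 over all genes. It was -0.84 with the covariate for genes read (all genes -0.17) and -0.58 without the Ly6Clo library of mouse 13 (all genes 0.02). With edgeR it was -0.04 (all genes -0.15), so its size depended on the fit.

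The wider pathway was read from 5 gene lists. Of 12 other I-kappaB and kinase genes, 1 passed between subsets: Nfkbid, a nuclear I-kappaB (limma adjusted p = 0.00337, edgeR 0.209). It was at 0 in all 10 Ly6Chi libraries and averaged 111 ± 116 in Ly6Clo cells, where 2 vehicle libraries were also at 0. Nfkbid thus passed the filter on low values through Ly6Clo cells alone. With each Ly6Chi library put at the 3 reads a 0 allows, Nfkbid was at least 42-fold higher in Ly6Clo cells. That bound covers counting error only. Of 17 adaptors and ligases upstream, Myd88, the adaptor of Toll-like and interleukin-1 receptors, was higher in Ly6Chi cells (1362 ± 295 against 845 ± 327, log2 difference 0.77, limma adjusted p = 0.0454, edgeR 0.0655). Traf1, an adaptor of TNF receptors and itself a target of the pathway, was higher in Ly6Clo cells (-4.91, limma adjusted p = 0.00977, edgeR 0.118). With edgeR no gene of these 2 lists was called between subsets. None of 12 other negative regulators passed with limma or edgeR, and 2 had an unadjusted p under 0.05 with each tool. Their smallest limma p-values were those of Tnip3 (-3.26, adjusted p = 0.0782), a partner of A20, and Rnf11 (-2.36, adjusted p = 0.255).

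Of 25 tested target genes, 4 passed as higher in Ly6Clo and 1 as higher in Ly6Chi cells. Over all 17248 genes 588 passed as higher in Ly6Clo and 312 as higher in Ly6Chi cells. The chemokine Ccl5 averaged 164 ± 171 in Ly6Chi and 36723 ± 10215 in Ly6Clo libraries (log2 difference -9.14, limma adjusted p = 5.3e-05). T and NK cells also make Ccl5, and their markers stood at the levels given above. The maturation marker Cd83 gave -5.61 (limma adjusted p = 0.0112, edgeR 0.0697) and the chemokine Ccl4 -2.51 (limma adjusted p = 1.66e-06). The part of T, NK and dendritic cells in the values of Ccl5, Cd83 and Ccl4 was not tested. The monocyte chemoattractant Ccl2 went the other way, 5018 ± 1395 against 672 ± 392 (3.76, limma adjusted p = 0.0167). Of 14 immediate early genes, which stress during cell isolation also raises, 4 passed as higher in Ly6Clo cells and none as higher in Ly6Chi cells. Their log2 differences were -6.90 for Egr2, -4.47 for Dusp2, -0.63 for Klf6 and -0.54 for Btg2, and edgeR called all but Dusp2 (adjusted p = 0.259). Estimates of 5 of the 14 were toward Ly6Chi cells, with an unadjusted limma p under 0.05 for Fos (0.37) and Nr4a1 (0.59).

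**Figure D5:**
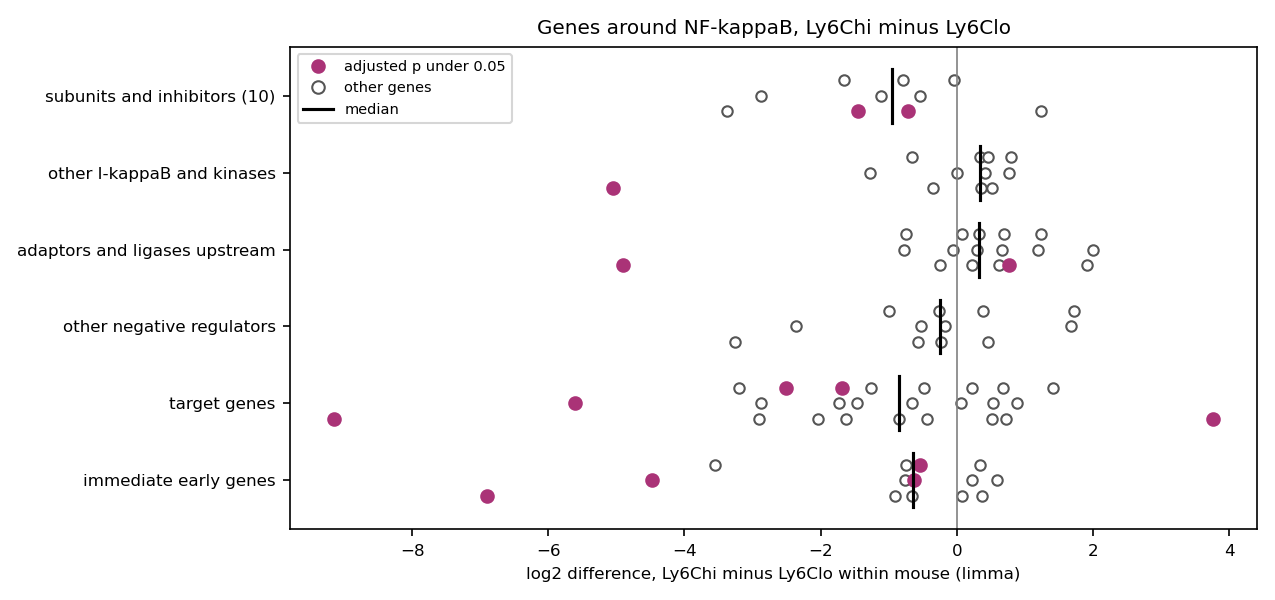
Log2 difference between subsets, Ly6Chi minus Ly6Clo within mouse, of the 10 genes and of the tested genes of 5 pathway lists, 1 point a gene, with each list's median as a vertical bar. Filled points passed the adjusted threshold: among them are 2 of the 10 genes, at -1.46 and -0.72, and Ccl5 at the far left, at -9.14. Every list but the other negative regulators has filled points.

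With Ac-6-FP no gene of these 5 lists passed with limma, in either subset or in the difference between subsets. In Ly6Chi cells the unadjusted limma p was under 0.05 for 1 of 12 I-kappaB and kinase genes, 1 of 17 adaptors, 1 of 12 negative regulators, 4 of 25 targets and 3 of 14 immediate early genes, all higher with Ac-6-FP. Over all genes 1158 with such a p were higher and 348 lower. With the number of genes read in each library as a covariate the split over all genes turned to 344 higher and 540 lower, and in the lists 3 targets were higher, 1 immediate early gene was lower and no other gene had such a p. The smallest p among the targets were those of Il1a (log2 difference 3.73, SE 0.97, limma adjusted p = 0.366) and Ccl4 (1.12, SE 0.30, limma adjusted p = 0.375). Ccl4 averaged 1662 ± 808 with vehicle and 3289 ± 225 with Ac-6-FP. In the other lists the smallest were those of Irak2, a kinase below Myd88 (3.18, SE 0.92), and Ticam1 (3.47, SE 2.07), of Pdlim2, a nuclear ligase for p65 (4.33, SE 1.68), and Rnf11 (2.74, SE 1.75), and of Tab1 (2.58, SE 1.03) and Ikbke (3.51, SE 1.94). Their limma adjusted p-values ran from 0.411 to 0.671. Of the 5 vehicle libraries, 5 were at 0 for Tab1, 4 for Il1a and for Rnf11, 3 for Ticam1 and for Ikbke, and 2 for Pdlim2. The sizes of these differences rest in part on those libraries.

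In Ly6Clo cells such an unadjusted p was met by 2 of 12 I-kappaB and kinase genes, 1 of 17 adaptors, 2 of 12 negative regulators, 2 of 25 targets and 5 of 14 immediate early genes, where over all genes 1357 were higher and 248 lower. With the covariate for genes read the counts were 0, 0, 1, 0 and 2 (all genes 436 higher and 270 lower), and with edgeR 0, 0, 0, 0 and 3 (all genes 1005 higher and 609 lower). The smallest in each list were those of Nfkbid (log2 difference 4.396, SE 1.57) and Ikbke (3.36, SE 1.47), of Myd88 (0.79, SE 0.32) and Irak4 (3.01, SE 1.495), and of Pdlim2 (6.17, SE 1.76) and Tnip3 (-0.88, SE 0.37). Among the targets they were those of the inflammasome sensor Nlrp3 (4.204, SE 1.43) and the TNF receptor Tnfrsf1b (4.86, SE 2.10). The limma adjusted p-values of these 8 genes ran from 0.521 to 0.555. Of the 5 vehicle libraries, 4 were at 0 for Nlrp3, 3 for Pdlim2 and for Tnfrsf1b, 2 for Nfkbid and for Ikbke, and 1 for Irak4. Among the immediate early genes Nr4a1 gave 1.73 (SE 0.51) in Ly6Chi and 2.95 (SE 0.81) in Ly6Clo cells, Fos 0.78 (SE 0.33) in the former and Btg2 1.03 (SE 0.31) in the latter, and none had a limma adjusted p below 0.424. Summed over the 14 immediate early genes, the normalised count was 44413 to 111588 with vehicle and 103681 to 129893 with Ac-6-FP in Ly6Chi cells, and 31523 to 165047 and 109664 to 166936 in Ly6Clo cells. The medians of these sums were higher with Ac-6-FP in both subsets, 57146 against 107243 in Ly6Chi and 55949 against 141218 in Ly6Clo cells. The summed level of the 10 genes had medians of 8970 and 8458 in Ly6Chi, and of 11320.1 and 17508 in Ly6Clo cells, and most of that sum is Nfkbia. The part of the immediate early response in these values was not tested.

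In the difference between subsets of the change with Ac-6-FP, the unadjusted limma p was under 0.05 for 1 of 12 I-kappaB and kinase genes, Nfkbid (-4.396, SE 1.67), with Ikbkg next (-2.70, SE 1.56). Since Nfkbid was at 0 in every Ly6Chi library, its value is the change in Ly6Clo cells with the sign turned and compares no response between subsets. It was under 0.05 for 4 of 14 immediate early genes, led by Zfp36 (-1.39, SE 0.49) and Btg2 (-0.58, SE 0.21), which encode an RNA decay factor and an antiproliferative protein. None of the adaptors, the other negative regulators or the targets had such a p in this fit. In the order kinases, adaptors, negative regulators, targets and immediate early genes, the counts were 1, 2, 0, 1 and 4 with the covariate for genes read, 0, 0, 0, 1 and 4 without the Ly6Clo library of mouse 13, and 0, 0, 0, 0 and 3 with edgeR. Over all genes tested 297 positive and 543 negative values had such a p in the reported fit. The all-gene numbers were 357 and 793 with the covariate, 429 and 453 without that library, and 144 and 169 with edgeR. In the reported fit the nearest among the adaptors, negative regulators and targets were Myd88 (-0.78, SE 0.39) and Birc3 (-3.69, SE 1.94), Zc3h12a (-4.41, SE 2.30) and Pdlim2 (-1.85, SE 1.13), and Icam1 (-2.73, SE 1.28) and Cxcl2 (-1.08, SE 0.63). Each of these 10 genes had a limma adjusted p of 0.830.

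Across the libraries of a subset, pairs of the 10 genes ran together to different degrees. Of the 45 pairs, 7 had a Pearson r over 0.5 in the 10 Ly6Chi libraries (median r 0.124), led by Rel with Rela at 0.946. In the 9 Ly6Clo libraries without that of mouse 13 there were 20 such pairs (median r 0.456), led by Rela with Tnfaip3 at 0.878 and Nfkbib with Rela at 0.814. The 3 pairs over 0.5 in both subsets were Nfkb2 with Rela (0.824 and 0.541), Nfkbib with Nfkb1 (0.761 and 0.689) and Nfkbia with Relb (0.506 and 0.743). These libraries share depth and detection, and the values are a description. Rel and Rela were both at 0 in the Ly6Chi libraries of vehicle mice 12 and 13, and their r of 0.946 rests in part on these shared zeros. Among the 5612 well-expressed genes, those whose level ran most like Nfkbia in both subsets were Erbb2ip, Ptdss1, Mapre2, an unnamed gene and Atp6v1h, with a lower of the 2 r values of 0.705 to 0.624. The members well enough expressed for this ranking, Nfkbib, Nfkb1 and Bcl3, reached 0.122, -0.06 and -0.20 by this measure. In the Ly6Clo libraries alone Nfkbib stood at 0.745 and Nfkb1 at 0.602, while in the Ly6Chi libraries alone they gave the lower values above. Over all 20 libraries the r of Nfkb1 with Nfkbia was 0.606.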

How the data were processed

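Libraries were prepared with a low-input kit not stated to keep strand, sequenced as 75-base reads and aligned with STAR 2.4.0 to mm10, and reads on constitutive FAST DB gene regions were counted, per the submitters' notes and the methods. The authors deposited read counts normalised with DESeq2 size factors, a depth-scaled signal per gene. These are whole multiples of what 1 read is worth in each library (100.0% of values within 0.006), so whole reads could be recovered.

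Genes with a mean of 10 in at least 1 of 4 groups were tested by limma 3.58.1 (R 4.3.3) on log2(normalised count + 1), with a trended prior and Benjamini-Hochberg adjustment over 17248 genes at 0.05. edgeR 4.0.16 on the recovered reads, other pseudocounts, filters and scalings, and leaving out mice or the Ly6Clo library of mouse 13 were alternatives. Single genes had two-sided exact permutation tests over mice (Python 3.11.15, numpy 2.4.6). The code was tested on simulated counts. The labels do not say that mice came from separate cages or batches, and p-values measure the spread between these mice.

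Both subsets came from each liver and share the mouse number in the labels, so subset comparisons were made within mouse. Deviations from group means correlated weakly between libraries of 1 mouse (median r 0.0338, against -0.00319 for different mice).

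All 10 genes were named in every comparison. Of each list up to 4 genes that passed were named, by size of difference, or the 2 with the smallest p. The genes and lists were chosen with earlier results of these data known. RefSeq promoter windows of 250 bases were matched by symbol. Likeness to Nfkbia was the lower Pearson r of the 2 subsets. Intervals and floors of 3 reads cover counting error only.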

Additional observations from a re-analysis of the deposited data

Results flagged for a closer look

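In 4 of 40 groups of 5 libraries (10 genes in 4 groups), 1 library lay apart from the other 4 by Dixon's criterion, which chance does in about 1 of 20 groups. Nfkbia reached 27329 in the Ly6Clo library of Ac-6-FP mouse 20, with the next library at 14761. Relb reached 226 in the Ly6Clo library of Ac-6-FP mouse 18, with the next at 75.15, and Tnfaip3 reached 880.1 in the Ly6Clo library of vehicle mouse 11, with the next at 251.6. Rela was lowest, at 109.7, in the Ly6Chi library of Ac-6-FP mouse 17, with the next at 241.

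For 2 genes all 5 Ac-6-FP libraries were below the vehicle mean of log2(normalised count + 1) in Ly6Chi and above it in Ly6Clo cells. For Bcl3 that Ly6Clo mean is low because 2 vehicle libraries are at 0: on the linear scale the vehicle mean was 125.7, and treated mouse 20, at 29.7, was below it. The change with Ac-6-FP differed between subsets by -1.03 on the log2 scale for Nfkbia and by -3.47 for Bcl3. With limma the adjusted p of this difference was 0.830 for each, and the exact permutation p was 0.0159 for each. The value of Nfkbia without the Ly6Clo library of mouse 13 was -0.83 and that of Bcl3 was -2.79.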

How the results depend on the processing

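Alternatives marked here as edgeR without mouse 15 or without the Ly6Clo library of mouse 13 were chosen after seeing the data. For single genes 417 alternative values kept direction and call, 9 passed where the reported fit did not, 6 lost the call and 29 reversed; with 1 mouse left out 370 kept both, 1 passed, 3 lost the call and 26 reversed. The cause of these changes was not tested.

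Pairing: with a replicate block over all 20 libraries none of the 10 genes passed with Ac-6-FP in either subset, and the genes past the threshold were 0 in Ly6Chi and 3 in Ly6Clo cells. With no replicate block 3 genes passed in the change between subsets, and 2 of the 10 genes still passed between subsets.

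In Ly6Chi cells 13 genes passed with Ac-6-FP. The count was 5 with no filter, 4 with a filter at 100, and 0 with quantile normalisation, with a covariate for genes detected per library, with edgeR and with edgeR without mouse 15, and 0 to 133 with 1 mouse left out. In Ly6Clo cells 9 passed. The count was 2 with a pseudocount of 10, with no filter, with a filter at 100, with the covariate and without mouse 13's library, 0 with quantile normalisation, edgeR and both restricted edgeR fits, and 0 to 103 with 1 mouse left out. In the change between subsets 0 passed, and the count was 2 with a filter at 100, 1 with quantile normalisation, and 3773 (4 of the 10 genes) by the study's criterion, or 3054 (4) without mouse 13's library.

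Between subsets 900 genes passed and 2 of the 10. The counts were 1848 with the covariate, 511 with edgeR (1 of the 10), 392 with edgeR without mouse 15 (1 of the 10), 79 in vehicle mice alone (0) and 545 in Ac-6-FP mice alone (0), and 1 to 3 of the 10 with 1 mouse left out.

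Reversed directions in Ly6Chi cells with pseudocount 10, quantile normalisation, covariate and edgeR were, for Nfkbiz, -0.032, -1.09, -2.79 and -0.56, and for Relb -0.26, -0.66, -2.17 and -0.92. Tnfaip3 gave -0.66, -1.81, -1.19 and -1.51 with quantile normalisation, covariate, edgeR and edgeR without mouse 15. With 1 mouse left out these 3 ranged from -0.78 to 1.04, from -0.85 to 1.03 and from -0.66 to 1.74. In Ly6Clo cells Nfkbiz gave -0.39 with edgeR and -0.65 without mouse 15 (mice left out: -0.56 to 1.81), and Rel gave -0.28 with the covariate and -0.08 and -0.012 (limma, edgeR) without mouse 13's library (-0.08 to 1.93).

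In the change between subsets Nfkbiz gave 0.25 with edgeR and 1.77 without mouse 15 (mice left out: -1.97 to 0.14), Nfkb1 0.048 with edgeR without mouse 15 (-0.33 to 0.21), Rela 0.22 by the study's criterion without mouse 13's library, and Tnfaip3 0.35 and 1.33 (limma, edgeR) without it (-3.40 to 0.35). Between subsets Nfkbib gave 0.10 and Bcl3 -0.50 in Ac-6-FP mice alone, Relb 0.73 and Rela 0.33 in vehicle mice alone, and Rela 0.31 with edgeR without mouse 15 and 0.0022 without mouse 13's library (mice left out: -0.37 to 0.15). For likeness to Nfkbia, 1 correlation over all 20 libraries put the 5 named genes at r = 0.33 to 0.492, ranks 287 to 1085.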
